A study of Homo sapiens with 12 samples.

Results

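The expression of 10 genes of the Notch pathway was followed across 2 human pancreatic ductal adenocarcinoma cell lines, MIA PaCa-2 and Capan-1, in which focal adhesion kinase (FAK, gene PTK2) was knocked down. The genes were chosen by name and were the receptors NOTCH1, NOTCH2 and NOTCH3, the ligands JAG1, JAG2 and DLL1, the targets HES1, HEY1 and NRARP, and the coactivator MAML2. Every probe under these names on an Illumina HumanHT-12 v4 bead array was taken, which gave 16 of the 47228 gene probes (the 10 are among 34599 gene names in the table), and 12 of the 16 passed the detection filter that 24207 probes passed in all. All cells carried a doxycycline-inducible short hairpin RNA in the PLKO.1 tet-on backbone with puromycin resistance. The hairpin was either a scrambled control (shCtrl) or 1 of 2 hairpins against FAK, sh1209 and sh1319, which gave 6 groups of cell line by hairpin with 2 arrays each. The cells, controls included, were kept in puromycin, at 3.5 ug/ml where the line was MIA PaCa-2 and at 1.5 ug/ml where it was Capan-1, and received 50 ng/ml doxycycline for 96 hours before RNA was taken. Nothing in the labels says whether the paired arrays came from separate cultures or whether a line was a pool or 1 clone, so p-values measure the spread between these arrays, which may be technical.

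Notch receptors are cleaved when a Jagged or Delta-like ligand on a neighbouring cell binds them. The released intracellular part enters the nucleus, joins the DNA-binding protein RBPJ and a Mastermind coactivator such as MAML2, and switches on repressors of the HES and HEY families and the feedback inhibitor NRARP. In the pancreas the pathway is known for holding progenitors undifferentiated during development, and its ligands and targets are expressed in ductal tumours.

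RBPJ binds the letters TGGGAA, most often as GTGGGAA. The promoters of 2 targets, HES1 and HES4, are shown, picked after their values were seen. Both hold these letters and both targets were lower with sh1209 in MIA PaCa-2, although the HES1 fall rested largely on 1 array. Each run is the 250 bases before the gene start in RefSeq (GRCh38.p14), at chr3:194135898-194136147 on the + strand for HES1 and at chr1:1000098-1000347 on the - strand for HES4, written 5′ to 3′ along the gene with the RBPJ letters in capitals.
HES1: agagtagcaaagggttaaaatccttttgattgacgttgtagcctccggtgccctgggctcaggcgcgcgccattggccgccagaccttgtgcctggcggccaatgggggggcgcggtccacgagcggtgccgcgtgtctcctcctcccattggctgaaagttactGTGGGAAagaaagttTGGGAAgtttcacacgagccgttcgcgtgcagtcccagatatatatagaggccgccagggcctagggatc
HES4: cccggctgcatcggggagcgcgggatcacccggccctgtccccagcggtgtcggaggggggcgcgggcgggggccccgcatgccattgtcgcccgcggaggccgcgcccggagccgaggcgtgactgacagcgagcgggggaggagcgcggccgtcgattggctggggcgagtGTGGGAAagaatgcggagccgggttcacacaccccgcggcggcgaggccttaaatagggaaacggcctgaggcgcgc
HES1 had TGGGAA at 84 and 70 bases before the start, the first of them within a GTGGGAA, and HES4 had 1 match, 76 bases before the start and also within a GTGGGAA. Among the other HES and HEY genes, HES5, HEY2 and HEYL held TGGGAA on at least 1 strand of the same window, and HES2, HES6 and HES7 did not. Of these holders, HEY2 (-0.10) and HEYL (0.23) did not pass with sh1209 in MIA PaCa-2, and HES5 was not tested. HEY2 and HEYL were not detected in that line with shCtrl, so a fall could not have been seen. Windows were found for 8 of the 10 Notch genes, and of these 8 only HES1 held the letters on either strand. NOTCH1, NOTCH2, NOTCH3, JAG1, JAG2, NRARP and MAML2 were the other 7, and DLL1 and HEY1 had no window in the table used. Over all 27305 windows, 21.1% held TGGGAA on either strand and 5.46% held GTGGGAA, which contains it, so a match is a description of letters and not a binding site.

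Values are log2 intensities after background correction and quantile normalization, with the lowest detected signal of an array at 4.55 to 4.74, and they are comparable between arrays for 1 probe but not between probes. A probe is called detected on an array when its detection p-value, set against the array's negative controls, is under 0.05. The 12 arrays had 16259 to 19814 detected gene probes and a median raw intensity of 87.7 to 97, and the paired arrays of a group correlated at 0.991 to 0.994. The PTK2 probe that fell in every knockdown group (450253) changed by -2.24 and -2.48 on the log2 scale with sh1209 and sh1319 in MIA PaCa-2. It changed less in Capan-1, by -0.61 and -1.78, and the knockdown of PTK2 RNA with sh1209 was smaller in Capan-1 than in MIA PaCa-2 (difference of the differences -1.63, limma adjusted p = 4.55e-05). The second PTK2 probe (2680750) passed the threshold in none of the 4 pairs, with log2 differences of 0.31, -0.29, -0.46 and -0.46, and the test between the lines passed the other way at this probe with sh1209 (0.77, adjusted p = 0.046). The size of the PTK2 change, and which line or hairpin had the larger one, thus depended on the probe. Capan-1 had 7 of 7 ductal epithelial markers detected on both arrays of every group. MIA PaCa-2 had 3 or 4 of the 7, with EPCAM and CDH1 detected in none of its groups. Its summed ductal marker intensity was 1920 to 1990 with shCtrl, 1420 to 1530 with sh1209 and 933 to 1050 with sh1319. This sum mainly reflects KRT8, the brightest of the 7 there, with mean log2 values of 10.67, 10.25 and 9.58 in this order. KRT18 and KRT19 were also lower with both FAK hairpins. MUC1 went the other way, at 5.19, 5.55 and 5.35, and KRT7 was detected with sh1319 only. Of 5 fibroblast markers, COL3A1 was detected in MIA PaCa-2 with both FAK hairpins and not with shCtrl, which moved the summed intensity from 106 to between 294 and 303 with sh1209 and between 247 and 269 with sh1319. The summed intensity of 4 leukocyte markers, of which CD68 was the 1 detected on both arrays in every group, was 286 with shCtrl, 426 to 478 with sh1209 and 274 to 291 with sh1319 in MIA PaCa-2. No endothelial marker was detected on both arrays of a MIA PaCa-2 group. In Capan-1 the ductal sum was 19000 to 19800 with shCtrl, 21500 to 23000 with sh1209 and 16800 to 18300 with sh1319. In the same order its leukocyte sum was 574 to 609, 710 to 724 and 608 to 633. Its endothelial sum was 79.3 to 86.2, 106 to 110 and 89.6 to 92.4. There PECAM1 was detected on both arrays with either FAK hairpin, VWF with sh1209 only, and the fibroblast marker LUM with sh1319 only. The part of these marker shifts in the Notch results was not tested.

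The first question was which Notch genes changed when FAK was knocked down, and it was asked for each hairpin in each cell line. RNA was taken from whole cultures, so fewer cells expressing a gene and less RNA per cell cannot be told apart. In MIA PaCa-2 with sh1209, 4 of the 12 tested Notch probes passed the threshold (limma, Benjamini-Hochberg adjusted p under 0.05 over all 24207 probes), and all 4 were lower: JAG1, HES1, HEY1 and NOTCH1. Of all tested probes, 18% passed in that comparison and 8.99% passed as lower, against 33.3% of the Notch probes. With sh1319 in the same line 2 of the 12 passed, JAG1 and DLL1, and both were higher, against a background of 24.3% called and 12.2% called higher. In Capan-1 none of the 12 passed with sh1209, where 16.8% of all probes did, and none with sh1319, where 13.7% did. At an unadjusted p under 0.05, limma gave 0 Notch probes in Capan-1 with sh1209 and 1 with sh1319, and the methods' t-test gave 2 and 1. The median log2 difference of the 12 probes was -0.10, 0.10, -0.10 and -0.03 in these 4 pairs in order, and that of all tested probes 0.01, -0.01, -0.01 and 0.00, with members on both sides of 0. The median size of the difference, whatever its direction, was 0.37 for the 12 probes against 0.21 for all probes with sh1209 in MIA PaCa-2, and 0.18 against 0.23, 0.12 against 0.19 and 0.08 against 0.18 in the other 3 pairs. Without background correction the 6 calls kept their direction and still passed, but all except the JAG1 rise were over 1.5 times smaller: with sh1209 JAG1 fell by 0.53, HEY1 by 0.41, HES1 by 0.39 and NOTCH1 by 0.23, and with sh1319 DLL1 rose by 0.27. The lower bounds of folds given for probes near background hold on the corrected scale only. In each cell line both hairpins were set against the same 2 shCtrl arrays.

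**Figure D1:**
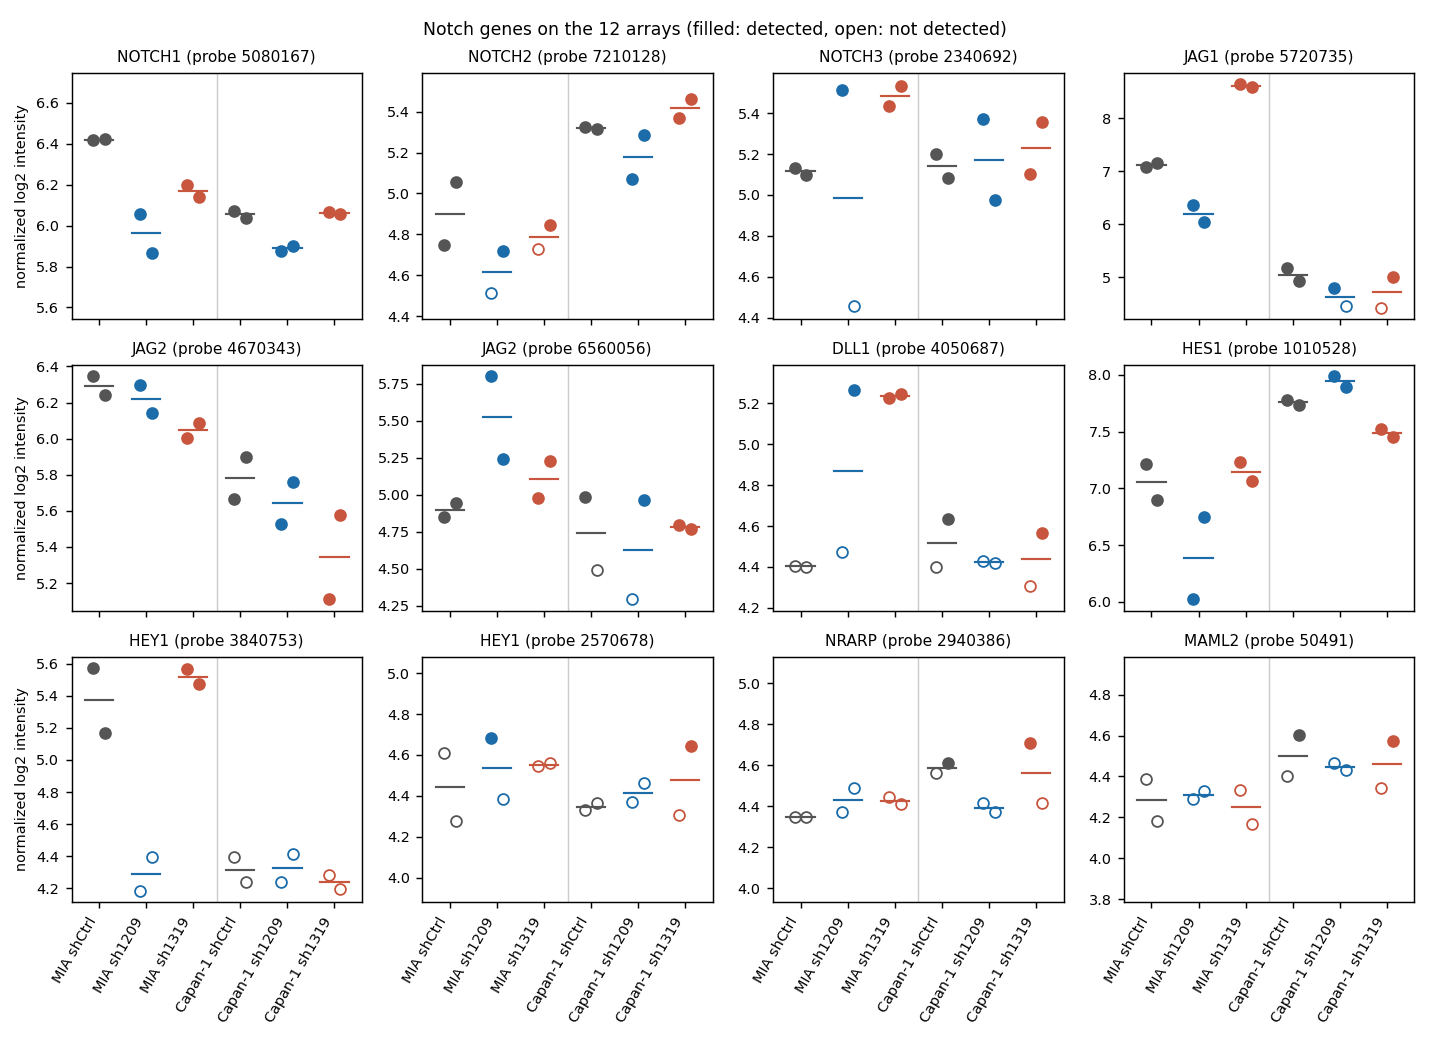
Normalized log2 intensity of the 12 tested Notch probes on each array (vertical axis, own range for each probe) by cell line and hairpin (horizontal axis), with 1 point per array, filled where the probe was detected and open where it was not, and a line at the mean of the 2 arrays. JAG1 in MIA PaCa-2 sits at 7.07 and 7.16 with shCtrl, below that with sh1209 and above it with sh1319, while most Capan-1 panels overlap between hairpins.

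Among the receptors, NOTCH1 was detected on all 12 arrays. It measured 6.42 and 6.42 in MIA PaCa-2 with shCtrl, 6.06 and 5.87 with sh1209, and 6.20 and 6.14 with sh1319. Both FAK hairpin groups lay below the control arrays without overlap, and the change passed with sh1209 (-0.46, 95% confidence interval -0.70 to -0.21, limma adjusted p = 0.0137) and not with sh1319 (-0.25, -0.49 to -0.01, adjusted p = 0.132). The sh1209 change was -0.42 and no longer passed with median scaling, and it did not pass without MIA PaCa-2 shCtrl replicate 1 (-0.46), shCtrl replicate 2 (-0.45) or sh1209 replicate 2 (-0.36). In Capan-1 the same probe read 6.07 and 6.03 with shCtrl, 5.88 and 5.90 with sh1209, and 6.07 and 6.06 with sh1319. Here too the sh1209 arrays were the lowest, but the difference of -0.17 did not pass (adjusted p = 0.388).

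NOTCH2 was reported by 1 tested probe (7210128), since its other 2 probes were detected on no array and stayed between 4.19 and 4.53. The tested probe gave 4.75 and 5.06 in MIA PaCa-2 with shCtrl, 4.51 and 4.72 with sh1209, and 4.73 and 4.85 with sh1319. In Capan-1 it gave 5.32 and 5.32, 5.07 and 5.29, and 5.37 and 5.46 in the same order. Every Capan-1 array was above every MIA PaCa-2 array, and no hairpin moved it past the threshold, with log2 differences of -0.29 to 0.10. NOTCH3, the receptor otherwise best known from vascular smooth muscle, measured 5.13 and 5.10 in MIA PaCa-2 with shCtrl, 5.51 and 4.46 with sh1209, and 5.43 and 5.53 with sh1319. Its sh1209 arrays fell on opposite sides of the control, the lower one not detected, and the interval of the sh1209 difference ran from -0.71 to 0.45. In Capan-1 it stayed between 4.97 and 5.37 over the 6 arrays.

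JAG1, the Jagged ligand with the largest changes of the list, moved in opposite directions with the 2 hairpins in MIA PaCa-2. It measured 7.07 and 7.16 with shCtrl, 6.36 and 6.04 with sh1209, and 8.64 and 8.59 with sh1319, so that the 3 groups of arrays were fully separated. JAG1 was 1.89-fold lower with sh1209 (log2 -0.92, 95% confidence interval -1.34 to -0.49, limma adjusted p = 0.00678) and 2.82-fold higher with sh1319 (1.50, 1.07 to 1.92, adjusted p = 0.000163). The rise passed under every alternative except the methods' t-test after Benjamini-Hochberg adjustment. Under that test no Notch change in MIA PaCa-2 passed, and the fall of PTK2 at probe 450253 passed in none of the 4 pairs either. The fall of JAG1 also missed the threshold without MIA PaCa-2 sh1209 replicate 2 (-0.75). In Capan-1 the JAG1 probe was dim, at 5.17 and 4.93 with shCtrl, 4.80 and 4.47 with sh1209, and 4.43 and 5.01 with sh1319, with 1 array of each FAK hairpin group not detected. The arrays of the 3 Capan-1 groups overlapped between shCtrl and sh1319, and the differences of -0.42 with sh1209 (-0.84 to 0.01) and -0.33 with sh1319 (-0.75 to 0.10) did not pass. In the order of levels JAG1 was highest in MIA PaCa-2 with sh1319 (mean 8.61), then shCtrl (7.12), then sh1209 (6.20), then Capan-1 with shCtrl (5.05), each step passing the threshold. Capan-1 with sh1319 (4.72) and sh1209 (4.63) came last, and the steps among the 3 Capan-1 groups did not pass.

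JAG2, the second Jagged ligand, had 3 probes, of which 1 (6040437) was detected on no array and the other 2 differed in what they showed. The brighter probe (4670343) gave 6.35 and 6.24 in MIA PaCa-2 with shCtrl, 6.30 and 6.14 with sh1209, and 6.01 and 6.09 with sh1319, and its differences of -0.07 and -0.25 did not pass. In Capan-1 it gave 5.67 and 5.90, 5.53 and 5.76, and 5.11 and 5.57, and with sh1319 both arrays lay below both controls, a difference of -0.44 (-0.80 to -0.08) that had an unadjusted p under 0.05 and did not pass adjustment (limma adjusted p = 0.103). It passed without Capan-1 sh1319 replicate 2 (-0.67). The dimmer probe (6560056) was highest in MIA PaCa-2 with sh1209, at 5.80 and 5.25 against 4.85 and 4.95 with shCtrl, and the difference of 0.62 (0.10 to 1.15) did not pass either (adjusted p = 0.101).

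DLL1, a Delta-like ligand, was at the limit of detection. It was not detected in MIA PaCa-2 with shCtrl (4.41 and 4.40), was detected on both arrays with sh1319 (5.22 and 5.25) and on 1 of the 2 with sh1209 (4.48 and 5.27). DLL1 was at least 1.44-fold higher with sh1319 (limma adjusted p = 0.0121), a bound set by the lowest signal among detected probes of each control array, and the change did not pass without either sh1319 array (0.84 and 0.82) or with the fit restricted to 1 cell line. The sh1209 pair was split, so its difference of 0.47 did not pass (adjusted p = 0.158), although without MIA PaCa-2 sh1209 replicate 1 it was 0.86 and passed. In Capan-1 the probe stayed between 4.31 and 4.63 and was detected on 2 of the 6 arrays.

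Among the targets, HES1, the repressor most often used as a readout of Notch signalling, was detected on all 12 arrays. It measured 7.22 and 6.90 in MIA PaCa-2 with shCtrl, 6.02 and 6.75 with sh1209, and 7.23 and 7.06 with sh1319. Both sh1209 arrays were below both controls but stood far apart, and the sh1319 arrays overlapped the controls. HES1 was 1.6-fold lower with sh1209 (log2 -0.67, 95% confidence interval -1.11 to -0.24, limma adjusted p = 0.0365) and differed by 0.09 with sh1319 (adjusted p = 0.821). The fall rested largely on sh1209 replicate 1: without it the difference was -0.31 and did not pass, and it did not pass without shCtrl replicate 1 (-0.52), with median scaling (-0.63), without the detection filter, or in the fit of 1 cell line. In Capan-1 HES1 measured 7.78 and 7.73 with shCtrl, 7.99 and 7.90 with sh1209, and 7.52 and 7.45 with sh1319. The 3 Capan-1 groups did not overlap, with sh1209 above and sh1319 below the control, but the differences of 0.19 and -0.27 did not pass (adjusted p = 0.638 and 0.462).

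HEY1, a repressor related to HES1, had 2 tested probes that differed. The first (3840753) was detected in MIA PaCa-2 with shCtrl (5.57 and 5.17) and sh1319 (5.56 and 5.47) and was not detected with sh1209 (4.18 and 4.40). It was not detected on any of the 6 Capan-1 arrays, which ran from 4.20 to 4.41. HEY1 was therefore at least 1.63-fold lower with sh1209 in MIA PaCa-2 (limma adjusted p = 0.000421), and this was the Notch change of that comparison that kept passing whichever array was left out. With sh1319 it differed from the control by 0.15 (adjusted p = 0.558). The second probe (2570678) was detected on 2 of the 12 arrays, ran from 4.28 to 4.68 and changed in no comparison. NRARP, the feedback inhibitor, had 1 probe that was never detected and 1 (2940386) that was detected on 2 arrays, both Capan-1 (4.61 with shCtrl and 4.71 with sh1319), and ran from 4.35 to 4.71. MAML2, the coactivator, was likewise detected on 2 Capan-1 arrays (4.60 with shCtrl and 4.58 with sh1319) and ran from 4.17 to 4.60. For NRARP and MAML2 the 4 hairpin differences lay between -0.19 and 0.08, and both genes were near background throughout.

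**Figure D2:**
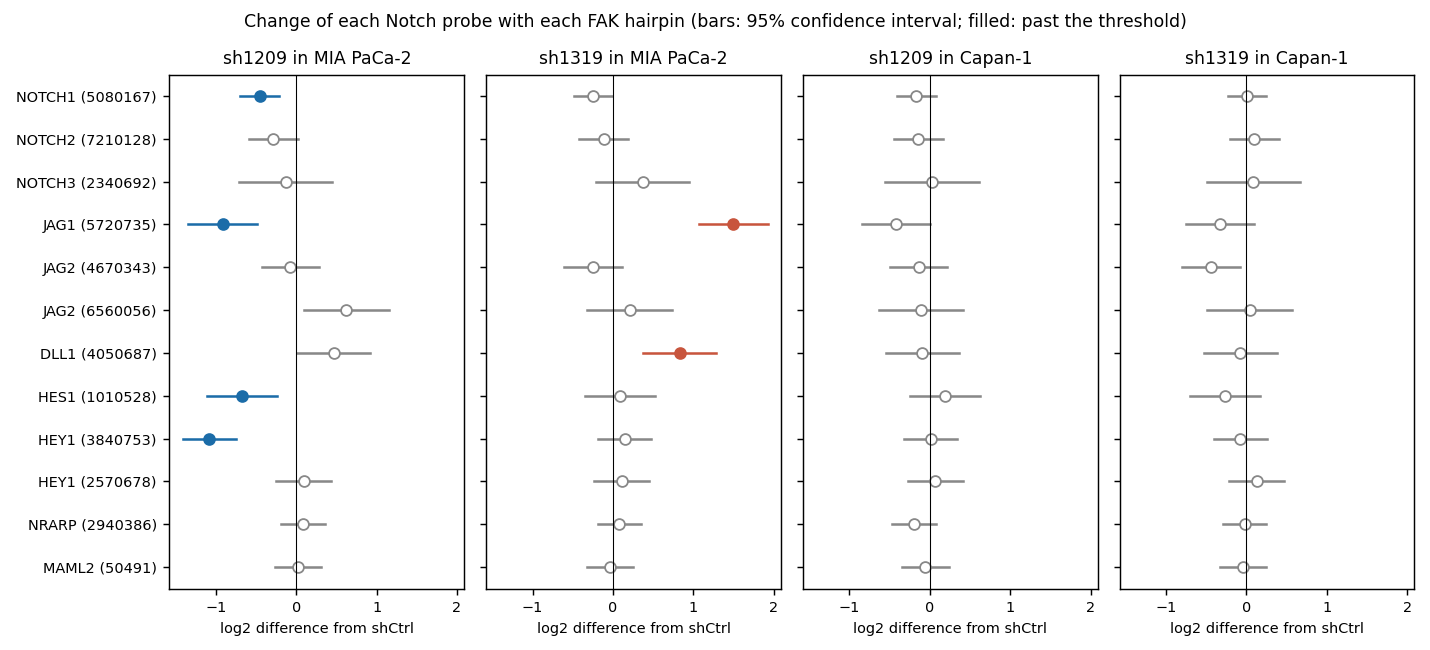
Log2 difference of each tested Notch probe from the shCtrl arrays of the same cell line (horizontal axis) for the 4 pairs of hairpin and cell line, with bars for the 95% confidence interval of the limma fit and filled points where the adjusted p was under 0.05 (blue lower, red higher). The 4 blue points are in MIA PaCa-2 with sh1209 and the 2 red points in MIA PaCa-2 with sh1319, with JAG1 at -0.92 and 1.50. The HEY1 (3840753) and DLL1 points compare a detected group with one not detected, and HEY1 was not detected on any Capan-1 array.

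A second question was whether 2 hairpins against the same gene had the same effect. In MIA PaCa-2 they differed at 3 of the 12 Notch probes, all lower with sh1209 than with sh1319, where 22.6% of all probes differed and 11.2% were lower. JAG1 was 5.32-fold lower with sh1209 (log2 -2.41, 95% confidence interval -2.84 to -1.99, limma adjusted p = 4.83e-06), HEY1 at least 1.81-fold lower (adjusted p = 0.000113) and HES1 1.7-fold lower (-0.76, -1.20 to -0.33, adjusted p = 0.016). The JAG1 and HEY1 differences passed whichever array was left out, and the HES1 difference did not pass without MIA PaCa-2 sh1209 replicate 1 (-0.40) or sh1319 replicate 1 (-0.68). Without background correction the HES1 and HEY1 differences shrank to -0.45 and -0.46 and still passed. The PTK2 probe 450253 itself did not differ past the threshold between the 2 hairpins in this line (0.24, interval -0.01 to 0.49, limma adjusted p = 0.173). The second PTK2 probe, near background in this line, did differ and was higher with sh1209 (0.59, 0.24 to 0.95, limma adjusted p = 0.021). In Capan-1 none of the 12 Notch probes differed between the hairpins, against 11.3% of all probes, and 1 had an unadjusted p under 0.05 in limma. This was HES1, higher with sh1209 than with sh1319 by 0.46 (0.02 to 0.89, adjusted p = 0.193), which passed without background correction (0.34) and in the fit of Capan-1 alone.

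Taking the mean of the 4 hairpin differences as 1 combined knockdown effect, 1 of the 12 probes passed, NOTCH1, which was lower by a small amount (-0.22, 95% confidence interval -0.36 to -0.07, limma adjusted p = 0.0354), where 25.2% of all probes passed and 12.7% passed as lower. The NOTCH1 effect shrank to -0.05 with median scaling and to -0.11 without background correction, where it still passed, and leaving out any of 11 of the 12 arrays ended the call (-0.19 to -0.23), the exception being MIA PaCa-2 sh1209 replicate 1. The combined effect of JAG1 was -0.04, since its 2 changes in MIA PaCa-2 had opposite signs.

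The third question was how the 2 cell lines differed in the cells that carried the scrambled control hairpin. With shCtrl, 6 of the 12 Notch probes differed between MIA PaCa-2 and Capan-1, 4 higher and 2 lower in MIA PaCa-2, where 42.1% of all probes differed, 22.5% higher and 19.6% lower. JAG1 was 4.18-fold higher in MIA PaCa-2 (log2 2.06, 95% confidence interval 1.64 to 2.49, limma adjusted p = 3.6e-06), and HEY1, not detected in Capan-1, was at least 1.71-fold higher (adjusted p = 0.000113). These 2 passed whichever array was left out. The brighter JAG2 probe was higher by 0.51 (adjusted p = 0.0239) and NOTCH1 by 0.36 (adjusted p = 0.0184), and neither passed with median scaling, where they were 0.26 and 0.13. HES1 was lower in MIA PaCa-2 (-0.70, adjusted p = 0.0137), as was NOTCH2 (-0.42, adjusted p = 0.0301). HES1 thus stood on the other side from JAG1 and HEY1. Without background correction NOTCH2 did not pass (-0.14), and JAG1 (1.00), HEY1 (0.38), JAG2 (0.24) and NOTCH1 (0.19) passed with differences over 1.5 times smaller. Leaving out 1 control array ended the call for NOTCH1 with any of the 4 (0.35 to 0.38), for NOTCH2 with MIA PaCa-2 replicate 1 (-0.26) or either Capan-1 array (-0.41 and -0.42), for JAG2 with replicate 1 of MIA PaCa-2 (0.46) or Capan-1 (0.40), and for HES1 with MIA PaCa-2 replicate 2 (-0.54) or either Capan-1 array (-0.68 and -0.72). The ductal marker sums, 1920 to 1990 in MIA PaCa-2 and 19000 to 19800 in Capan-1, differed in the same comparison, and their part was not tested. Puromycin also differed, at 3.5 ug/ml in MIA PaCa-2 and 1.5 ug/ml in Capan-1, and cannot be told apart from the cell line.

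**Figure D3:**
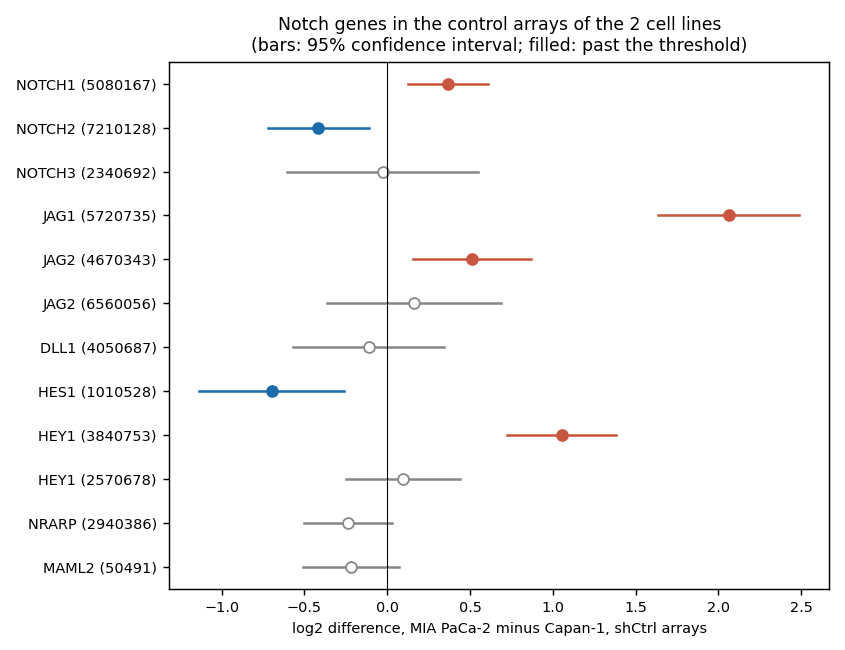
Log2 difference of each tested Notch probe between MIA PaCa-2 and Capan-1 on the shCtrl arrays (horizontal axis, positive where MIA PaCa-2 was higher), with bars for the 95% confidence interval and filled points where the limma adjusted p was under 0.05. JAG1 at 2.06 lies to the right and HES1 at -0.70 to the left, and the HEY1 (3840753) point is set against Capan-1 arrays on which it was not detected, so it stands for a difference of at least 1.71-fold.

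Whether the cell lines responded differently was tested on the difference of the differences. For the mean of both hairpins, none of the 12 Notch probes passed (limma, 14.4% of all probes passed), and 3 had an unadjusted p under 0.05. For each hairpin alone, a comparison added after the data were examined, 1 Notch probe passed for sh1209 and 1 for sh1319, where 14.8% and 14% of all probes did. In the direction of the Notch probe it was 7.44% of all probes for sh1209 (lower) and 7.1% for sh1319 (higher). The probe for sh1209 was HEY1 (3840753), which was not detected on any Capan-1 array, so a fall there could not have been seen and its responses in the lines cannot be compared. With sh1319, JAG1 rose in MIA PaCa-2 and not in Capan-1 (1.83, 1.22 to 2.43, adjusted p = 0.00118). The response of HES1 to sh1209 differed by -0.86 (-1.48 to -0.24) and did not pass (adjusted p = 0.0637), and that of DLL1 to sh1319 by 0.91 (0.27 to 1.55, adjusted p = 0.062). The change of JAG1 with sh1209, called in MIA PaCa-2 only, was not shown to differ from that in Capan-1 (-0.50, -1.10 to 0.10, adjusted p = 0.275), nor was that of NOTCH1 (-0.29, -0.63 to 0.05, adjusted p = 0.261).

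To see which Notch genes moved together, Pearson correlations were taken over the 12 arrays after each cell line's mean was taken off, as a description, since all points share the same arrays and shCtrl cells. HES1 and HEY1 (3840753) had the highest value among the Notch genes (r = 0.841, n = 12), followed by JAG1 and HEY1 (0.763) and NOTCH3 and JAG1 (0.625), with HEY1 detected on only 4 of the 12 arrays, all MIA PaCa-2. JAG1 and HES1 correlated at 0.559. Over all tested genes, the 3 patterns most like that of JAG1 were DYRK3 (r = 0.972, n = 12), a protein kinase, TMED5 (0.970), a protein of the early secretory pathway, and SCARNA11 (0.966), a small Cajal body RNA. The SCARNA11 probe was detected on no Capan-1 array and the DYRK3 probe (3990152) on 1, so their likeness rests on MIA PaCa-2. TMED5 had mean levels of 9.31, 8.80 and 10.39 in MIA PaCa-2 with shCtrl, sh1209 and sh1319, the same order as JAG1. The 3 most like HES1 were SFT2D2 (r = 0.912, n = 12), ITGB1 (0.905), which encodes the integrin beta subunit through which many matrix receptors signal to FAK, and HSF2BP (0.885). A second SFT2D2 probe (4250491), near background, correlated with HES1 at 0.438. HSF2BP was also near background, with group means of 4.47 to 5.10, and was not detected in MIA PaCa-2 with sh1209 or Capan-1 with shCtrl. The ITGB1 value came from 1 dim probe (4040491), with mean levels of 6.18, 5.74 and 6.37 for the hairpins in this order in MIA PaCa-2 and not detected on any Capan-1 array. The 3 bright ITGB1 probes (610452, 650066 and 110440), detected on all 12 arrays, correlated with HES1 at 0.186, -0.0361 and 0.096, so the likeness does not extend to them.

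The rest of the pathway was taken from a list of 51 further genes by role, with 89 probes on the array, of which 67 probes of 44 genes were tested. With sh1209 in MIA PaCa-2, 10 of the 67 passed, 4 higher and 6 lower (14.9%, against 18% of all probes). With sh1319, 19 passed, 9 higher and 10 lower (28.4%, against 24.3%). In Capan-1, 8 passed with sh1209, 7 higher and 1 lower (11.9%, against 16.8%), and 10 with sh1319, 7 higher and 3 lower (14.9%, against 13.7%). The median difference of the 67 probes was 0.06, -0.04, 0.09 and 0.07 in these pairs, against 0.01, -0.01, -0.01 and 0.00 for all probes, and members lay on both sides of 0 in each.

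HES4, a HES repressor that the rule for naming genes took first for its size of change, followed the pattern of JAG1. It measured 9.60 and 9.70 in MIA PaCa-2 with shCtrl, 8.25 and 8.42 with sh1209, and 10.31 and 10.03 with sh1319. The groups did not overlap, and HES4 fell with sh1209 (-1.32, SE 0.13, limma adjusted p = 3.9e-05) and rose with sh1319 (0.52, adjusted p = 0.0136), the rise not passing without replicate 1 of either group (0.47 without shCtrl and 0.38 without sh1319). In Capan-1 all 6 arrays lay between 9.51 and 9.82. Of the other HES and HEY genes, HES6 went the other way, and it is named after its values were seen. It measured 8.63 and 8.52 with shCtrl, 9.00 and 8.86 with sh1209, and 7.78 and 7.68 with sh1319 in MIA PaCa-2. HES6 fell with sh1319 (-0.85, adjusted p = 0.000462) and differed by 0.35 with sh1209 (adjusted p = 0.0819). HES2 and HEY2 passed in none of the 4 pairs, and HEYL was higher in Capan-1 with sh1209 (0.74, limma adjusted p = 0.0117).

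Among the other receptors and ligands, DLK2, a non-canonical Delta-like protein, fell with both hairpins in MIA PaCa-2, from 7.77 and 7.91 with shCtrl to 6.76 and 6.62 with sh1209 (-1.15, limma adjusted p = 6.13e-05) and 6.67 and 6.60 with sh1319 (-1.21, adjusted p = 2.52e-05). In Capan-1 the same probe was dim and rose with sh1319, from 4.82 and 4.62 to 5.59 and 5.50 (0.82, adjusted p = 0.00117), a rise of 0.28 without background correction. Its other 2 tested probes passed in none of the 4 pairs. NOTCH4, the remaining receptor, was detected in MIA PaCa-2 with shCtrl (5.07 and 5.24) and not with sh1209 (4.33 and 4.32), which made it at least 1.4-fold lower on the corrected scale (adjusted p = 0.00488), with a log2 difference of -0.29 without background correction. It was detected on no Capan-1 array.

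Of the 14 tested probes for the enzymes that cleave the receptor (ADAM10, ADAM17, FURIN and the gamma-secretase subunits), 5 were higher and none lower with sh1319 in MIA PaCa-2, a median of 0.44, where 12.2% of all probes were higher. NCSTN, the nicastrin subunit of gamma-secretase, measured 8.64 and 8.46 with shCtrl, 8.62 and 8.59 with sh1209, and 9.52 and 9.42 with sh1319 (0.92 for sh1319, limma adjusted p = 0.000138). Among the others were 1 probe each of ADAM10 (0.81, adjusted p = 0.00862), APH1A (0.46, adjusted p = 0.0159) and APH1B (0.47, adjusted p = 0.0458), all named after their values were seen. The other tested probes of ADAM10 (0.64) and APH1A (0.26) did not pass. In Capan-1, 3 of the 14 were higher with sh1209 and 1 with sh1319 (21.4% and 7.14%). Of all 24207 probes, 1971 and 1682 were higher, and 16.8% and 13.7% were called in either direction. FURIN, which processes the receptor on its way to the surface, was higher with both (0.79 and 0.77, limma adjusted p = 0.0322 and 0.0409). It was near background with shCtrl (4.74 and 4.55, detected on 1 of the 2 arrays). It measured 5.16 and 5.71 with sh1209 and 5.12 and 5.72 with sh1319.

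Genes that act on ligand or receptor turnover gave 3 of the largest changes. NUMBL, a relative of the Notch inhibitor NUMB, was not detected in MIA PaCa-2 with shCtrl (4.67 and 4.64) and was detected with sh1209 (5.98 and 5.98), at least 2.41-fold higher on the corrected scale (limma adjusted p = 0.00155), with a log2 difference of 0.48 without background correction. NUMB itself, named after its values were seen, fell with sh1319 in both lines at 1 probe (4230403): from 8.29 and 8.11 to 7.47 and 7.40 in MIA PaCa-2 (-0.76, adjusted p = 0.000554) and from 9.15 and 9.20 to 8.16 and 8.04 in Capan-1 (-1.07, adjusted p = 0.000169). This probe was also lower in Capan-1 with sh1209 (-0.38, adjusted p = 0.0488), which did not pass with median scaling (-0.20) or when any 1 of its 4 arrays was left out (-0.35 to -0.40). The second NUMB probe (110445) fell with sh1319 in Capan-1 (-0.63, adjusted p = 0.0372) and differed by 0.02 in MIA PaCa-2 (adjusted p = 0.964), and its fall did not pass with median scaling (-0.35) or without either shCtrl array (-0.49 and -0.77) or sh1319 replicate 1 (-0.45). NEURL1B, a ubiquitin ligase for Notch ligands, fell in MIA PaCa-2 from 6.69 and 6.82 to 5.87 and 6.19 with sh1209 (-0.72, adjusted p = 0.0148) and to 5.63 and 5.40 with sh1319 (-1.24, adjusted p = 0.000323). Its fall with sh1209 did not pass with median scaling or without sh1209 replicate 1 (-0.56) or shCtrl replicate 2 (-0.66), and without background correction its changes were -0.39 and -0.61. DTX2, a Deltex ubiquitin ligase, rose in Capan-1 with both hairpins, from 8.38 and 8.37 to 9.44 and 9.51 with sh1209 (1.10, adjusted p = 0.000362) and 9.52 and 9.33 with sh1319 (1.05, adjusted p = 0.000738), while its second probe (6380215) passed in none of the 4 pairs.

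In the nuclear complex, 1 of the 3 tested probes of RBPJ (2450554), named after its values were seen, moved against JAG1 in MIA PaCa-2. It measured 5.99 and 6.01 with shCtrl, 6.56 and 6.88 with sh1209, and 5.08 and 5.38 with sh1319. The rise with sh1209 (0.72, limma adjusted p = 0.0153) did not pass without shCtrl replicate 1 (0.71), shCtrl replicate 2 (0.73) or sh1209 replicate 2 (0.56), and the fall with sh1319 (-0.77, adjusted p = 0.00742) did not pass with median scaling or without sh1319 replicate 1 (-0.62). Without background correction the rise was 0.38 and the fall -0.31. The other 2 RBPJ probes passed in none of the 4 pairs.

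**Figure D4:**
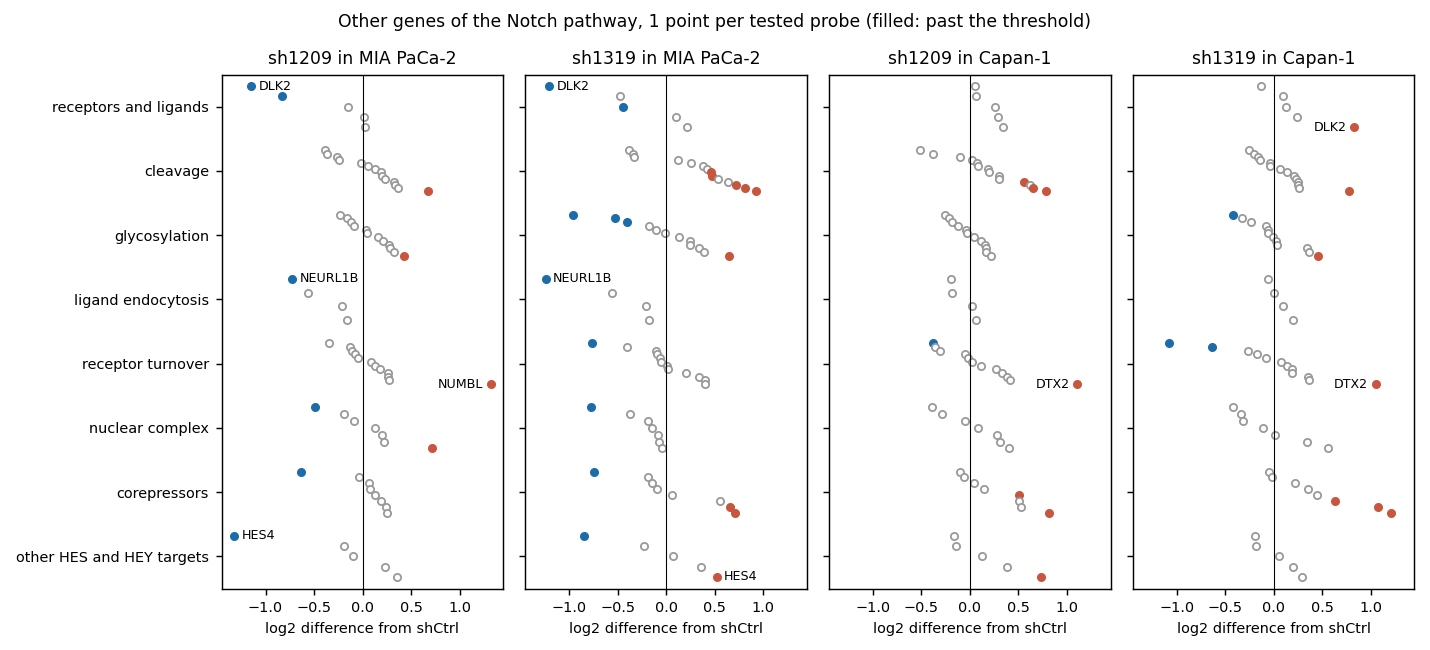
Log2 difference from shCtrl (horizontal axis) of the 67 tested probes of the other Notch pathway genes by role (vertical axis, points spread within a role), for the 4 pairs of hairpin and cell line, filled where the limma adjusted p was under 0.05 (blue lower, red higher). HES4 is the leftmost point with sh1209 in MIA PaCa-2 at -1.32, and in the cleavage row all 5 filled points with sh1319 in MIA PaCa-2 lie to the right of 0.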

How the data were processed

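Total RNA, 500 ng per sample, was labelled and hybridised to Illumina HumanHT-12 v4 arrays, all 12 on 1 chip. Samples were grouped by the labels, with shFAK1319 in Capan-1 read as sh1319. The authors deposited a linear intensity and a detection p-value for each probe, without normalization; the submitters' processing notes name GenomeStudio 2011.1. Of 47320 rows, 92 spike-in rows were left out after background correction. No genome build is given in the sources used here.

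Here the background was corrected with limma's nec (normexp from detection p-values, offset 16), and log2 intensities were quantile normalized. Probes with a detection p-value under 0.05 on at least 2 of the 12 arrays were tested with lmFit and eBayes (limma 3.58.1, R 4.3.3) on the means of 6 groups, with 6 residual degrees of freedom. Tests were two-sided and adjusted by Benjamini-Hochberg within each of 9 comparisons and 2 comparisons added after the data were examined. The methods' t-test was an alternative. The number of arrays limits the precision. The fit was tested on simulated data. The genes, the pathway list and the marker lists were chosen with earlier results of these data known. Beside the 10 genes, the text names the 6 listed pathway genes with the largest change past the threshold, 1 of which is not reported here, and the 3 genes nearest to JAG1 and to HES1; other names are marked. Promoters and gene positions came from RefSeq (GRCh38.p14); probe sequences were not analysed here.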

Additional observations from a re-analysis of the deposited data

Results flagged for a closer look

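The response to sh1319 differed between the cell lines at 1 Notch probe that was detected in both, by a limma test of the difference of the differences that was added after the data were examined. JAG1 (5720735) changed by 1.50 in MIA PaCa-2 and by -0.33 in Capan-1, a difference of 1.83 (adjusted p = 0.00118, 1.1e-07 to 0.008 over the alternatives). The change of PTK2 with sh1319 also differed between the lines at probe 450253 (-0.71, or -0.37 without background correction), a call that was lost without MIA PaCa-2 sh1319 replicate 1 (-0.65) or Capan-1 shCtrl replicate 2 (-0.62), and it was not called at the second PTK2 probe (0.17, adjusted p = 0.696). The part of PTK2 in the JAG1 result was not tested.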

How the results depend on the processing

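No difference of a Notch probe that passed the threshold changed sign under any alternative, and of the 114 that did not pass, 24 passed under at least 1 alternative, 0 of them with the opposite sign. The alternatives include the methods' t-test at an unadjusted p under 0.05, and some of the 24 passed only there. The number of Notch probes past the threshold moved as follows. With the methods' t-test after Benjamini-Hochberg adjustment it was 0 for either hairpin in MIA PaCa-2, the combined knockdown and the hairpins against each other in MIA PaCa-2, and 2 for the cell lines. The adjusted t-test also lost the fall of PTK2 probe 450253 with each hairpin in each line. That test called none of the 67 further pathway probes in any of these 4 pairs. For the combined knockdown it pooled the cell lines without a term for the line. Unadjusted, that test gave 5 in MIA PaCa-2 with sh1319, and in Capan-1 2 with sh1209, 1 with sh1319 and 2 between the hairpins. A minimum log2 change of 1 left 1, 1, 0 and 2 for sh1209 and sh1319 in MIA PaCa-2, the combined knockdown and the cell lines. Median scaling gave 2 for sh1209 in MIA PaCa-2, 0 for the combined knockdown and 2 for the difference in sh1209 response between the lines. The stricter detection filter gave 1 for sh1319 in MIA PaCa-2, 2 for the combined knockdown and 2 for the difference in sh1209 response. Without background correction there was 1 between the hairpins in Capan-1, 1 for the difference in the mean knockdown response and 3 for that in the sh1209 response. The fit of 1 cell line gave, in MIA PaCa-2, 2 with sh1209 and 1 with sh1319, and 1 between the hairpins in Capan-1.

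Leaving out 1 array gave in MIA PaCa-2 2 to 5 with sh1209 and 1 to 2 with sh1319, in Capan-1 0 to 1 with sh1319, 0 to 2 for the combined knockdown, 2 to 4 for the cell lines, 2 to 4 between the hairpins in MIA PaCa-2, 0 to 1 for the difference in the mean response and 1 to 2 for that in the sh1209 response; the lone array left in a group was then assumed to vary like the other groups.

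In the labels, arrays numbered 1 end in the letters A to F and arrays numbered 2 in G to L. In every group replicate 2 had the higher median raw intensity, with 92.5 to 97 against 87.7 to 92.8 for replicate 1. Deviations of same-numbered arrays from their group means correlated at -0.0611 to 0.16 over 15 pairs of groups. These were taken after normalization, so they do not speak to a shift before it. With the replicate number as a block, HES1 with sh1209 in MIA PaCa-2 did not pass (-0.67, limma adjusted p = 0.0509), 2 probes passed for the difference in sh1319 response, DLL1 being the second (adjusted p = 0.045), and no other call on a Notch probe changed.

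Median scaling moved the share of called probes that were higher in MIA PaCa-2 with sh1319 from 50.3% to 66.6%, in Capan-1 from 48.4% to 81.7% with sh1209 and from 50.6% to 85.3% with sh1319, from 49.6% to 78% for the combined knockdown, from 50.6% to 34.7% between the hairpins in MIA PaCa-2, and from 50.4% to 31.7% and from 49.9% to 26.1% for the mean and the sh1209 response between the lines. It moved the median of all probes to 0.11 for sh1319 in Capan-1. NRARP, MAML2, DLL1 and the second HEY1 probe lay at the limit of detection.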
